A study of Mus musculus with 15 samples.

Results

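The enzymes of NAD synthesis, salvage and conversion were examined in haematopoietic stem cells (HSC), the bone marrow cells from which all blood lineages arise. The members were the genes listed for these steps that have a row in the deposited table of read counts, namely Nampt, Nmnat1, Nmnat3, Nmrk1, Nadsyn1, Naprt, Nadk, Nadk2, Nnt and Pnp. All 10 of the 10 listed genes were present among 16154 genes, and each had at least 6 counts in every library. The RNA-seq libraries came from 15 C57BL/6 mice, 1 library per mouse by the study's methods. There were 5 libraries in each of 3 groups, and all animals were female by the labels. Young mice were 6 to 12 weeks old and aged mice were 20 to 24 months old, both on drinking water alone, whereas the third group was aged mice of 20 to 24 months given 3 mg/ml nicotinamide riboside (NR) in the water for 2 months. Each library was made from 20000 to 25000 HSC of 1 animal, sorted by surface markers as lineage-negative, Sca-1+, cKit+, CD150+ and CD48- cells. The substrain of C57BL/6 is not given in the sources used here.

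NAD is the coenzyme that carries electrons in glycolysis and respiration, and it is also broken down by sirtuins, PARPs and the glycohydrolase CD38. Cells rebuild it from nicotinamide, from nicotinic acid, from NR, or from tryptophan by the de novo pathway. The branches meet at the NMNAT enzymes, which join the mononucleotide to ATP, and NR enters through the NR kinases or is first split by purine nucleoside phosphorylase.

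No member reached an adjusted p under 0.05 in any comparison. In aged against young HSC, 0 of 10 members passed, where 19.3% of all genes tested did (edgeR, quasi-likelihood F test, p-values adjusted by Benjamini and Hochberg's method across the whole table). In HSC from NR-treated aged animals against aged HSC, 0 of 10 passed, where 8.07% of all genes did, and against young HSC 0 of 10 passed, where 4.47% did. At an unadjusted p under 0.05 there were 3 members in aged against young HSC (33.2% of all genes), 2 in NR-treated aged against aged HSC (25.1%) and 1 in NR-treated aged against young HSC (18% of all genes). The likelihood ratio test gave 0 calls in each comparison, while DESeq2 and limma voom each gave 1 call, Pnp in aged against young HSC. These p-values do not show that the genes were unchanged, and the 95% interval of the fold change lay within 2-fold in either direction for 9 of 10 members in each comparison. Since the libraries are bulk RNA, fewer cells of a type and less RNA per cell cannot be told apart.

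Each of the 3 groups enters 2 of the comparisons, so these share libraries and their values are set side by side only. Total counts were 2122221 to 3631395 in young, 764119 to 13318989 in aged and 2486399 to 3595384 in NR-treated aged libraries. The 12 HSC markers, such as Kit, Mecom, Hlf and Slamf1, were found in every library and summed to 2330 to 3168 CPM. In aged against young HSC 3 of them were called higher and 1 lower, where 9.68% and 9.63% of all genes were. In NR-treated aged against aged HSC 0 were called higher and 1 lower, where 3.88% and 4.18% of all genes were. The summed levels of mature blood cell markers varied between the groups, with overlap for some. The summed level of 9 erythroid markers was 145 to 2663 CPM in young, 3253 to 6534 CPM in aged and 78.5 to 575 CPM in NR-treated aged libraries. The 9 measured B and plasma cell markers summed to 108 to 825, 608 to 4387 and 93.3 to 170 CPM in the same order, and 12 neutrophil and monocyte markers to 411 to 7278, 1648 to 2599 and 302 to 582 CPM. The medians of the neutrophil and monocyte sum were 510, 2123 and 360 CPM. The 7 measured T and NK cell markers summed to 107 to 193, 218 to 261 and 148 to 232 CPM. In aged against young HSC, 4 erythroid, 3 B and plasma cell, 1 T and NK cell and 0 neutrophil and monocyte markers were called higher (9.68% of all genes). Of these lists 0 markers were called lower there (9.63% of all genes). In NR-treated aged against aged HSC, 8 erythroid, 5 B and plasma cell, 1 T and NK cell and 9 neutrophil and monocyte markers were called lower (4.18% of all genes). There 0 were called higher (3.88%). Against young HSC, 6 erythroid, 3 B and plasma cell, 0 T and NK cell and 8 neutrophil and monocyte markers were called lower (1.91%). Only 1 marker, of T and NK cells, was called higher there (2.56%). The part of these cells in the values of the members was not tested. Young replicates 1 and 5 went against their label, with 104 and 108 CPM of 4 Y-linked genes against at most 3.16 CPM in any other library. They also held Xist, a transcript of female cells, at 436 and 482 CPM. Xist was at 554 to 919 CPM in the other young, 296 to 422 CPM in aged and 520 to 882 CPM in NR-treated aged libraries. Whether these replicates held cells of more than 1 animal was not tested. Without young replicates 1 and 5, 0 members passed in each comparison.

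Sequence before a transcription start is shown for the member of the nicotinamide branch, the NR kinase and purine nucleoside phosphorylase, the 3 members with the lowest p-values in aged against young HSC. Each line gives the 250 bases before a RefSeq transcription start, 5′ to 3′ on the strand of the gene, from GRCm38.p6, and all 3 genes lie on the plus strand. The Nampt and Pnp windows lie inside the GENCODE M21 spans given below for these genes, which begin further upstream, and the Nmrk1 window reaches across the first base of its span. Capitals mark the letters GGGCGG on either strand, the core of the site bound by SP factors, and the E-box letters CACGTG.
Nampt, chr12:32820085-32820334: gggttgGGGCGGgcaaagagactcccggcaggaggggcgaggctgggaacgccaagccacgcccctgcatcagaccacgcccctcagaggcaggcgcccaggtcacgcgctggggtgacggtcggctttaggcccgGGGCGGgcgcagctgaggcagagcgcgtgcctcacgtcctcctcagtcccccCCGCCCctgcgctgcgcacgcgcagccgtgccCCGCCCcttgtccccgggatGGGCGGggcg
Nmrk1, chr19:18631766-18632015: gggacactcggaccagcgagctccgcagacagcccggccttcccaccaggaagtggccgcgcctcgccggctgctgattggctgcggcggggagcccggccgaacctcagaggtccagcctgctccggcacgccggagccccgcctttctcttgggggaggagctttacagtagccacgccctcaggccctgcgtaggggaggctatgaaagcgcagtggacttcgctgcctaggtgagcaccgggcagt
Pnp, chr14:50944053-50944302: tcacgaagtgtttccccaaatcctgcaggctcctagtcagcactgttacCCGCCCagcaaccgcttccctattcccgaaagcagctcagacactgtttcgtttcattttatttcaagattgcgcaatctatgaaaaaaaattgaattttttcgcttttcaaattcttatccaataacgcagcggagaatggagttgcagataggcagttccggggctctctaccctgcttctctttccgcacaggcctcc
The Nampt window held 5 matches to GGGCGG and 27 CpG dinucleotides with a GC content of 75.6%, against a median of 6 CpG and 52.4% over all 32851 windows of this length. The Nmrk1 window held 21 CpG at 69.2% GC with no match to either motif, and the Pnp window held 1 match to GGGCGG and 11 CpG at 46.8% GC. GGGCGG was present in 32.7% and CACGTG in 6.02% of all windows. Windows were found for 7 of the 10 members, and the matches are descriptions of letters, not of binding.

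Levels of the 10 members were compared per kilobase of merged exons (GENCODE M21, GRCm38), as mean ± SD over the 15 libraries. Nadk, the cytosolic NAD kinase that makes NADP, had the highest mean level at 18.3 ± 2.35 CPM per kb, and Pnp followed at 16.4 ± 2.39. Nampt was at 11.1 ± 1.60, Naprt at 10.6 ± 1.87, Nadk2 at 8.17 ± 1.64 and Nmnat3 at 7.23 ± 1.11 CPM per kb. Nmnat1 was at 5.46 ± 1.16, Nmrk1 at 3.31 ± 0.63, Nadsyn1 at 2.06 ± 0.714 and Nnt at 1.19 ± 0.396 CPM per kb. Neighbours in this order that did not differ by more than the larger SD were Nadk and Pnp, Nampt and Naprt, and Nadk2 and Nmnat3. In CPM, without division by length, Nampt averaged 56.3 and Naprt 24.8, ranks 3 and 6 of the 10 members. Nnt, at 8.37 CPM, was above Nadsyn1, at 6.81 CPM. Per kb, Pnp exceeded Nampt, and Nmnat1 exceeded Nmrk1, in 15 of 15 libraries. In CPM, Nampt was above Pnp in young replicate 4 (52.6 against 46.1), NR-treated replicate 3 (63.0 against 55.2) and NR-treated replicate 4 (69.8 against 64.7). Nmrk1 was above Nmnat1 in NR-treated replicate 2 (13.1 against 11.0 CPM). The libraries were 3′ biased, so that counts need not grow with transcript length and the order per kb need not be that of transcript numbers. The coefficient of variation of CPM within a group had a median over members of 16.3% in young, 14.5% in aged and 16.9% in NR-treated aged HSC, against 25.2%, 22.9% and 22.9% over all genes. Within groups, the variance relative to that of counting alone was 1.16 for Nmrk1, the lowest, and 6.31 for Nadk2, the highest.

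**Figure D1:**
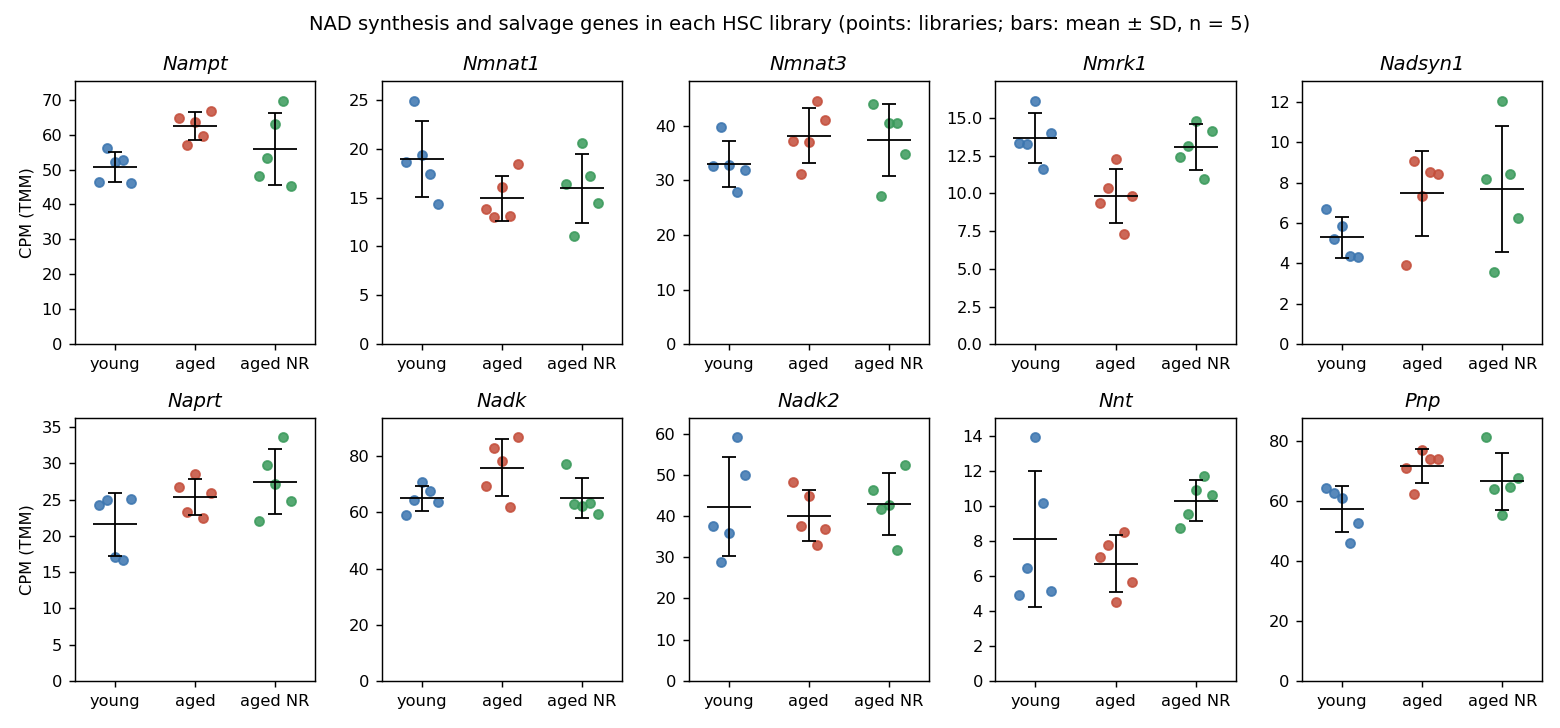
Level of each member in CPM with TMM library sizes (linear axes from 0, a scale of its own for each gene) in the 5 young, 5 aged and 5 NR-treated aged (aged NR) libraries. Points are libraries and bars are mean ± SD. All 5 aged libraries lie above the 5 young libraries for Nampt, and all 5 NR-treated aged libraries lie above the 5 aged libraries for Nnt.

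Nampt makes nicotinamide mononucleotide from nicotinamide and is the rate-limiting enzyme of that salvage route. The gene lies on chromosome 12 (32819545 to 32853349, plus strand). In young HSC it was at 46.3, 56.3, 52.1, 52.6 and 46.1 CPM in replicates 1 to 5. In aged HSC it was at 64.9, 57.1, 63.6, 59.7 and 66.9 CPM, every value above every young one. HSC from NR-treated aged animals had 48.0, 53.4, 63.0, 69.8 and 45.2 CPM, a range that spanned both other groups. The mean was 50.7 ± 4.38 in young, 62.4 ± 3.97 in aged and 55.9 ± 10.3 CPM in NR-treated aged HSC (SD, n = 5 each). The log2 fold change was 0.31 in aged against young HSC (95% interval 0.05 to 0.57, edgeR adjusted p = 0.0851), -0.17 in NR-treated aged against aged HSC (-0.43 to 0.09, adjusted p = 0.400) and 0.14 in NR-treated aged against young HSC (adjusted p = 0.622). Nampt was the only member whose aged and young libraries did not overlap, where 12.4% of all genes did not overlap (6.86% with aged above young libraries and 5.53% below).

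Nmrk1 is the NR kinase that phosphorylates NR to nicotinamide mononucleotide, the direct entry of the given precursor. It lies on chromosome 19 (18631950 to 18652428, plus strand). Young HSC had 13.3, 13.3, 16.2, 11.6 and 14.0 CPM. Aged HSC had 9.39, 10.4, 12.3, 7.29 and 9.84 CPM, so that 4 of 5 aged libraries were below every young one. NR-treated aged HSC had 12.4, 13.1, 14.8, 11.0 and 14.2 CPM, within the combined range of the other groups and with 4 of 5 libraries above every aged one. The fitted log2 fold change was -0.47 in aged against young HSC (95% interval -0.86 to -0.09, edgeR adjusted p = 0.0773). It was 0.41 in NR-treated aged against aged HSC (0.03 to 0.80, adjusted p = 0.165) and -0.06 against young HSC (-0.45 to 0.32, adjusted p = 0.906). With library totals in place of TMM the aged against young change of -0.61 passed (adjusted p = 0.0228), a scaling under which the median of all genes moved from -0.03 to -0.16. With every library thinned to the smallest total, the value was 0.13 in NR-treated aged against aged HSC (adjusted p = 0.904) and -0.57 against young HSC (adjusted p = 0.525). Nmrk2, the muscle paralogue, had no row in the deposited filtered counts and so was not analysed.

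Pnp encodes purine nucleoside phosphorylase, which splits nucleosides and can release nicotinamide from NR. It lies on chromosome 14 (50931082 to 50965237, plus strand). It was at 64.6, 62.7, 61.1, 46.1 and 52.6 CPM in young HSC. Aged HSC had 71.0, 62.3, 77.2, 74.1 and 74.1 CPM, and only aged replicate 2, at 62.3 CPM, fell within the young range. NR-treated aged HSC had 81.4, 64.1, 55.2, 64.7 and 67.8 CPM and overlapped both groups. The log2 fold change in aged against young HSC was 0.34 (95% interval 0.08 to 0.59), with an edgeR adjusted p of 0.0600, the lowest of the members. It passed with DESeq2 (0.33, adjusted p = 0.0426), with limma voom (0.37, adjusted p = 0.0320), without young replicate 2 (0.37, adjusted p = 0.0472) and without aged replicate 2 (0.37, adjusted p = 0.0489). NR-treated aged against aged HSC gave -0.12 (-0.37 to 0.14, adjusted p = 0.582), and 0.02 with library totals in place of TMM.

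Pnp2, a close copy of Pnp, lies wholly within the Pnp locus on the same strand, and 22.0% of the 72-base windows of its transcripts (72 bases is the read length) also occur in Pnp or in the read-through model Gm49342. For Pnp, 17.1% of its windows also occur in Gm49342 or Pnp2, and 718 of its exon bases are shared with Gm49342 on the same strand. Reads from such windows could be left uncounted or be assigned to either gene. The counting options that decide this are not given in the sources used here, so the values of both genes are uncertain. Pnp2 was at 4.87 ± 1.67 CPM in young, 8.90 ± 2.89 in aged and 3.64 ± 0.80 CPM in NR-treated aged HSC. It rose by a log2 fold change of 0.93 in aged against young HSC (edgeR adjusted p = 0.0311) and fell in NR-treated aged against aged HSC, with -1.35 (adjusted p = 0.0117). The first call was lost in 5 of the 15 fits that each left out 1 library (young replicates 2, 3 and 5 and aged replicates 3 and 5, adjusted p up to 0.108) and in the fit with the replicate number as a block (adjusted p = 0.0521), with library totals (adjusted p = 0.0577) and without young replicates 1 and 5 together (adjusted p = 0.0718). The second was lost without aged replicate 3 (adjusted p = 0.0509). With every library thinned to the total of the smallest, neither passed (0.40 with an adjusted p of 0.646, and -1.03 with an adjusted p of 0.274). All 5 NR-treated aged libraries, at 2.72 to 4.52 CPM, were below all 5 aged libraries, at 5.19 to 11.9 CPM. When the counts of Pnp and Pnp2 were added, which was chosen after the data were seen, the sum was higher in aged than in young HSC (log2 fold change 0.39, edgeR adjusted p = 0.0295), with -0.21 in NR-treated aged against aged HSC (adjusted p = 0.280).

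The NMNAT enzymes convert nicotinamide mononucleotide to NAD, NMNAT1 in the nucleus and NMNAT3 in mitochondria. Nmnat1 lies on chromosome 4 (149467572 to 149485202, minus strand) and Nmnat3 on chromosome 9 (98287435 to 98420438, plus strand), while Nmnat2 had no row in the deposited filtered counts. Nmnat1 was at 18.6, 24.9, 19.3, 17.4 and 14.3 CPM in young, at 13.9, 13.0, 16.1, 13.2 and 18.5 CPM in aged and at 16.4, 11.0, 20.6, 17.2 and 14.4 CPM in NR-treated aged HSC. These 3 groups overlapped, with a log2 fold change of -0.31 in aged against young HSC (95% interval -0.71 to 0.08, edgeR adjusted p = 0.262) and 0.07 in NR-treated aged against aged HSC (-0.33 to 0.47, adjusted p = 0.912). Nmnat3 was at 32.6, 39.8, 32.8, 27.9 and 31.8 CPM in young, at 37.1, 31.1, 37.1, 44.6 and 41.0 CPM in aged and at 44.1, 27.1, 40.4, 40.5 and 34.9 CPM in NR-treated aged HSC. Its groups also overlapped, and the log2 fold changes were 0.23 (-0.07 to 0.54, adjusted p = 0.280) and -0.05 (-0.36 to 0.25, adjusted p = 0.861), the second of which turned to 0.09 with library totals. Some 3.88% of the 72-base windows of Nmnat1 transcripts also occur in other genes, and none of those of Nmnat3 do.

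Naprt and Nadsyn1 serve the nicotinic acid branch, in which NAPRT attaches nicotinic acid to ribose phosphate and NAD synthetase amidates the last intermediate. Naprt lies on chromosome 15 (75890956 to 75894481, minus strand). In GENCODE M21 it shares 277 exon bases with Eef1d on the same strand, so a part of its reads may not be assignable to 1 gene. Naprt was at 24.2, 24.9, 17.1, 16.7 and 25.1 CPM in young, at 26.7, 23.4, 28.5, 22.4 and 25.9 CPM in aged and at 22.0, 29.8, 27.2, 33.6 and 24.8 CPM in NR-treated aged HSC. Young replicates 3 and 4 were the 2 lowest of all 15 libraries. The log2 fold change was 0.24 in aged against young HSC (95% interval -0.10 to 0.58, edgeR adjusted p = 0.315), 0.10 in NR-treated aged against aged HSC (-0.23 to 0.43, adjusted p = 0.806) and 0.34 in NR-treated aged against young HSC (adjusted p = 0.278). In NR-treated aged against young HSC it was the only member with an unadjusted p under 0.05.

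Nadsyn1 lies on chromosome 7 (143795584 to 143822849, minus strand) and was among the least counted members, with 7 to 87 counts per library. Young HSC had 6.67, 5.22, 5.84, 4.35 and 4.32 CPM. Aged HSC had 3.90, 9.08, 7.35, 8.53 and 8.44 CPM, with aged replicate 1 below every young library and the other 4 above every one. NR-treated aged HSC had 8.19, 3.58, 12.1, 8.40 and 6.26 CPM, the widest relative spread of any member in this group (coefficient of variation 40.4%). The log2 fold change in aged against young HSC was 0.46 with a 95% interval of -0.20 to 1.12 (edgeR adjusted p = 0.327), the only member interval in that comparison that reached beyond 2-fold. For NR-treated aged against aged HSC it was 0.07 (-0.56 to 0.70, adjusted p = 0.910).

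Nadk and Nadk2 are the cytosolic and mitochondrial NAD kinases, which phosphorylate NAD to NADP. They lie on chromosome 4 (155562378 to 155591001, plus strand) and chromosome 15 (9071260 to 9110891, plus strand). Nadk was at 59.0, 64.3, 71.0, 67.5 and 63.6 CPM in young, at 69.5, 83.0, 78.3, 61.9 and 86.8 CPM in aged and at 77.4, 62.9, 62.2, 63.2 and 59.4 CPM in NR-treated aged HSC. Aged HSC held the 3 highest libraries, and replicate 1 of the NR-treated animals stood above the other 4 of its group. The log2 fold change was 0.21 in aged against young HSC (95% interval -0.03 to 0.46, edgeR adjusted p = 0.203) and -0.21 in NR-treated aged against aged HSC (-0.45 to 0.03, adjusted p = 0.252), and in NR-treated aged against young HSC its interval was -0.24 to 0.24.

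Nadk2 was at 37.5, 28.9, 35.9, 59.1 and 49.9 CPM in young HSC, at 48.3, 37.6, 44.8, 32.9 and 37.0 CPM in aged HSC and at 46.3, 41.7, 42.8, 31.8 and 52.3 CPM in NR-treated aged HSC. Young HSC held both the highest and the lowest of the 15 libraries. Its log2 fold change was -0.07 in aged against young HSC (95% interval -0.45 to 0.30, edgeR adjusted p = 0.828), 0.09 in NR-treated aged against aged HSC (-0.28 to 0.47, adjusted p = 0.789) and 0.02 in NR-treated aged against young HSC (-0.35 to 0.40, adjusted p = 0.974).

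Nnt encodes the mitochondrial nicotinamide nucleotide transhydrogenase, which uses the proton gradient to form NADPH from NADH, and part of the gene is deleted in the J substrain of C57BL/6. GENCODE M21 holds 2 entries of this name on chromosome 13. The deposited table, counted on an earlier GENCODE release, holds 1 row, so which exons were counted cannot be told. Nnt had 6 to 53 counts per library. In young HSC it was at 4.91, 6.43, 13.9, 10.2 and 5.12 CPM. In aged HSC it was at 7.08, 7.78, 4.48, 8.53 and 5.62 CPM. NR-treated aged HSC had 8.76, 9.54, 10.9, 11.7 and 10.6 CPM, each above all aged libraries. It was the only member whose NR-treated aged and aged libraries did not overlap, where 8.6% of all genes did not overlap (3.65% with NR-treated above aged libraries and 4.95% below), and young HSC, at 4.91 to 13.9 CPM, overlapped both groups. The log2 fold change was 0.66 in NR-treated aged against aged HSC (95% interval 0.07 to 1.25, edgeR adjusted p = 0.154) and -0.29 in aged against young HSC (-0.90 to 0.31, adjusted p = 0.524). Against young HSC, the NR-treated aged value was 0.36 (-0.23 to 0.96, adjusted p = 0.559), and 0 members had groups that did not overlap, where 4.74% of all genes had such groups (2.8% above and 1.94% below).

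**Figure D2:**
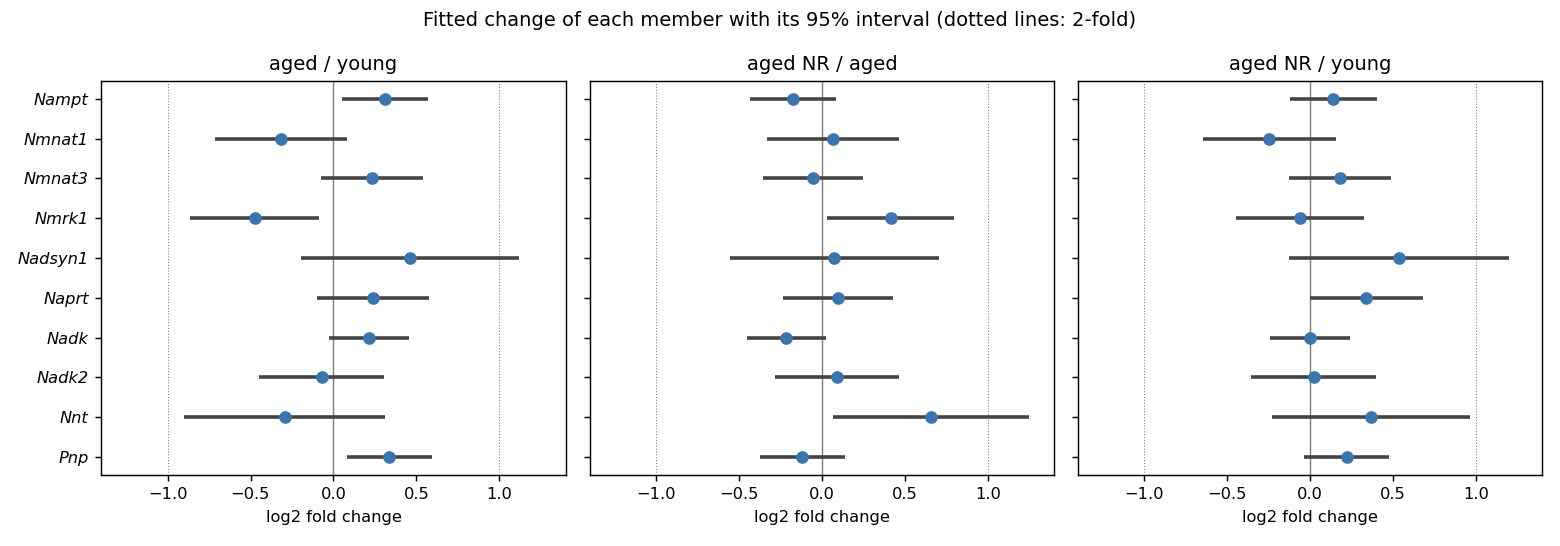
Fitted log2 fold change (x axis) of the 10 members in aged against young, NR-treated aged against aged and NR-treated aged against young HSC, from the edgeR fit of all 15 libraries. Points are estimates, lines are 95% intervals, and dotted lines mark 2-fold. The intervals of Nampt, Nmrk1 and Pnp in the first panel and of Nmrk1 and Nnt in the second do not include 0, and that of Naprt in the third ends just above it, while no adjusted p was under 0.05.

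Across the members, the median log2 fold change was 0.22 in aged against young HSC, with values from -0.47 for Nmrk1 to 0.46 for Nadsyn1, and the median over all genes was -0.03. It was 0.07 in NR-treated aged against aged HSC, from -0.21 for Nadk to 0.66 for Nnt, with 0.02 over all genes. NR-treated aged against young HSC gave 0.16, from -0.25 for Nmnat1 to 0.53 for Nadsyn1, with -0.005 over all genes. The median size of the change, whatever its sign, was 0.30, 0.11 and 0.20 for the members against 0.33, 0.28 and 0.23 for all genes. A median of 10 genes is a description, and nothing particular to the members is drawn from it.

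Ratios between members within a library do not depend on how libraries are scaled. They were taken as log2 of the ratio of counts, with 2 counts added to each. The added counts weigh more in shallow libraries, such as aged replicate 2 with 8 counts of Nmrk1. The ratio of Nampt, which uses nicotinamide, to Nmrk1, which uses NR, was 1.74, 2.02, 1.63, 2.11 and 1.68 in young libraries. It was 2.75, 2.20, 2.36, 2.97 and 2.72 in aged libraries, all above the young ones. In NR-treated aged libraries it was 1.90, 1.98, 2.04, 2.59 and 1.64, with 4 of 5 below every aged library and 4 of 5 within the young range. Back-transformed, the means were ratios of 3.58 in young, 6.06 in aged and 4.08 in NR-treated aged HSC. With 0.5 counts added in place of 2 they were 3.68, 6.33 and 4.19, and aged replicate 2 was at 2.39 on the log2 scale. Since the pairs were chosen with earlier results known, these ratios were not tested. Nampt averaged higher and Nmrk1 lower in aged than in young HSC, so the higher ratio restates those values. No share over other gene pairs was taken.

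The ratio of Pnp to Nmrk1 was 1.86 to 2.22 in young, 2.32 to 3.28 in aged and 1.85 to 2.66 in NR-treated aged libraries, so that aged and young libraries were again apart. This again restates a member that averaged higher and one that averaged lower in aged HSC. Nmnat1 relative to Nmnat3 averaged -0.79 ± 0.19 in young, -1.32 ± 0.26 in aged and -1.21 ± 0.16 in NR-treated aged libraries. One young library, at -1.13, fell among the aged ones, which ran from -1.74 to -1.12. Nadk relative to Nadk2 averaged 0.65 ± 0.40, 0.91 ± 0.27 and 0.60 ± 0.29 in the same order, with wide overlap. Pnp relative to its copy Pnp2, a pair added after the data were seen, was 2.63 to 3.24 in aged and 3.68 to 4.27 in NR-treated aged libraries without overlap, and young libraries ran from 2.69 to 4.30.

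**Figure D3:**
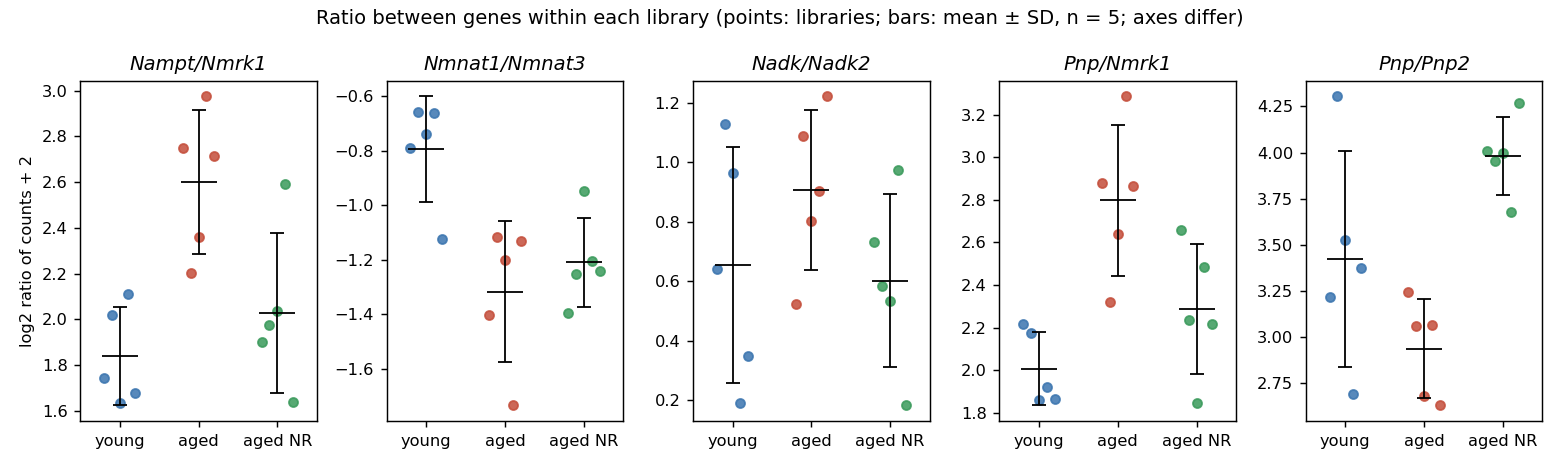
Log2 ratio of the counts of 2 genes within each library, with 2 counts added to each (y axes differ between panels and do not start at 0), in 5 young, 5 aged and 5 NR-treated aged (aged NR) libraries. Points are libraries and bars are mean ± SD. Nampt and Pnp relative to Nmrk1 lie higher in every aged library than in any young one. These pairs were chosen with earlier results known and combine the members with the lowest p-values in that comparison. No share over other gene pairs was taken.

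The other genes of the pathway were taken from lists of 60 genes, of which 42 were in the table. In aged against young HSC 5 of them rose and 4 fell, where 9.68% of all genes rose and 9.63% fell. In NR-treated aged against aged HSC 1 rose and 5 fell, where 3.88% and 4.18% of all genes did, and in NR-treated aged against young HSC 1 rose and 2 fell (2.56% and 1.91% of all genes). The median log2 fold change of the 42 genes was -0.08, -0.09 and -0.09 in the 3 comparisons.

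Among the NAD glycohydrolases, Cd38, which consumes NAD, was at 9.47, 14.5, 15.3, 13.4 and 15.9 CPM in young HSC. The aged libraries had 51.4, 55.8, 54.8, 44.4 and 48.4 CPM, all above the young ones. NR-treated aged HSC had 24.9, 32.2, 3.89, 20.5 and 32.9 CPM. It rose by a log2 fold change of 1.88 in aged against young HSC (edgeR adjusted p = 0.000325) and fell in NR-treated aged against aged HSC, with -1.13 (adjusted p = 0.0247). Without aged replicate 3 or NR-treated replicate 4 the fall no longer passed (adjusted p = 0.0671 and 0.0629), nor did it with every library thinned to the smallest total (-0.90, adjusted p = 0.119). Sarm1, the other measured member of that list, averaged 0.859, 1.24 and 1.25 CPM in young, aged and NR-treated aged HSC and passed in no comparison.

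Of the 9 measured genes of precursor transport and extracellular steps, 1 rose and 3 fell in aged against young HSC. The equilibrative nucleoside transporters, through which NR can enter cells, moved in different directions. Slc29a1 fell by 0.44 on the log2 scale (edgeR adjusted p = 0.0493), a call that held in only 3 of the 15 fits that each left out 1 library (adjusted p up to 0.116) and was lost with a replicate block (adjusted p = 0.0788) and without young replicates 1 and 5 together (adjusted p = 0.176). The lysosomal Slc29a3 fell by 0.48 (adjusted p = 0.0301), which was lost without young replicate 4, aged replicate 1 or aged replicate 4 (adjusted p up to 0.0795). Slc29a2 rose by 2.34 (adjusted p = 0.00387), and in NR-treated aged against aged HSC it fell by 1.66 (adjusted p = 0.0387). Its aged libraries were at 4.77, 5.19, 18.1, 5.51 and 41.8 CPM, so that replicates 3 and 5 stood above the rest. Without aged replicate 5 the second change was -0.85 with an adjusted p of 0.200, and the rise was 1.52. Leaving out aged replicate 3 or any single NR-treated library also lost the call of the fall, as did the replicate block (adjusted p = 0.0798), the fit of the 2 groups alone (adjusted p = 0.0570) and the fit without young replicates 1 and 5 (adjusted p = 0.0516). By limma voom neither change of Slc29a2 passed (1.87 with an adjusted p of 0.0509, and -1.20 with an adjusted p of 0.163). The concentrative transporter Slc28a2 fell by 1.13 in aged against young HSC (adjusted p = 0.0238), which was lost without young replicate 3, 4 or 5 or aged replicate 3 (adjusted p up to 0.0591) and without young replicates 1 and 5 together (adjusted p = 0.0555). Slc25a51, the mitochondrial NAD carrier, was at 62.0 ± 6.66 CPM in young, 54.0 ± 9.50 in aged and 54.5 ± 2.96 CPM in NR-treated aged HSC and passed in no comparison. Slc29a1 also fell in NR-treated aged against young HSC (-0.62, edgeR adjusted p = 0.0244), a call kept in 10 of the 15 fits that left out 1 library and lost with the 2 groups alone (adjusted p = 0.0631) and without young replicates 1 and 5 (adjusted p = 0.111). With every library thinned to the smallest total, the rise of Slc29a2 and no other call of this list passed, with adjusted p of 0.254 for Slc29a1, 0.208 for Slc29a3 and 0.0666 for Slc28a2 in aged against young HSC, 0.110 for the fall of Slc29a2 and 0.154 for Slc29a1 in NR-treated aged against young HSC.

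The 9 measured genes of nucleotide breakdown and repair held 2 that rose and 1 that fell in aged against young HSC. Nt5c3, a cytosolic nucleotidase, was at 230 ± 17.1 CPM in young, 411 ± 52.5 in aged and 317 ± 12.7 CPM in NR-treated aged HSC. It rose by a log2 fold change of 0.84 in aged against young HSC (edgeR adjusted p = 9.08e-06), fell by 0.37 in NR-treated aged against aged HSC (adjusted p = 0.0267) and was higher in NR-treated aged than in young HSC (0.47, adjusted p = 0.00804). The second of these was lost without aged replicate 3 or 5 or NR-treated replicate 3 or 4 (adjusted p up to 0.0901), with library totals (adjusted p = 0.0866) and with thinned counts (adjusted p = 0.0565), and the third without young replicates 1 and 5 together (adjusted p = 0.0518). Naxd, which repairs hydrated NADH and NADPH, rose by 0.42 in aged against young HSC (adjusted p = 0.0166), and Naxe, its partner epimerase, had 0.27 (adjusted p = 0.116). The Naxd call was lost without young replicate 5 (adjusted p = 0.0511), with library totals (adjusted p = 0.0669) and without young replicates 1 and 5 together (adjusted p = 0.149). Noct, an NADP(H) phosphatase, fell by 1.30 (adjusted p = 0.0370) at 0 to 29 counts per aged library, and the call held in 9 of the 15 fits that left out 1 library (lost without young replicates 3 and 4 and aged replicates 1, 3, 4 and 5, one at a time). With thinned counts the Noct change was -1.90 and did not pass (adjusted p = 0.120). Nudt13, a mitochondrial NAD(P)H hydrolase, rose by 0.73 in NR-treated aged against aged HSC (adjusted p = 0.0151), with every NR-treated library, at 30.2 to 44.2 CPM, above every aged library, at 18.2 to 25.7 CPM. It did not pass with thinned counts (0.63, adjusted p = 0.142).

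The 5 measured genes of the de novo pathway from tryptophan were low and held 0 calls by the edgeR quasi-likelihood test in each comparison, with 0, 1 and 3 genes at an unadjusted p under 0.05. The likelihood ratio test and DESeq2 each called Tdo2 in NR-treated aged against aged HSC and Haao in NR-treated aged against young HSC, and limma voom called Tdo2 alone. Haao averaged 7.91, 3.53 and 2.54 CPM, Qprt 3.38, 3.93 and 5.21 CPM and Tdo2 1.43, 1.38 and 3.59 CPM in young, aged and NR-treated aged HSC. The 5 measured genes of PRPP synthesis, which supply the ribose phosphate that NAMPT and NAPRT use, held 0 calls in aged against young and in NR-treated aged against aged HSC by edgeR, DESeq2 or limma voom, and 0 genes at an unadjusted p under 0.05 in both. Prps1 averaged 85.9, 96.8 and 86.4 CPM and Prpsap1 72.2, 88.9 and 82.4 CPM, while Prps2 fell in NR-treated aged against young HSC (log2 fold change -0.57, edgeR adjusted p = 0.0419), kept in 7 of the 15 fits that left out 1 library and lost with the replicate block (adjusted p = 0.0583), with library totals (adjusted p = 0.0554), with thinned counts (adjusted p = 0.0744) and without young replicates 1 and 5 (-0.48, adjusted p = 0.203). Among the 11 measured genes of NADPH production, Idh1 alone passed by the edgeR quasi-likelihood test, with -0.99 in NR-treated aged against aged HSC (adjusted p = 0.0188), a call lost without aged replicate 3 or NR-treated replicate 4 (adjusted p = 0.0680 and 0.0553). The likelihood ratio test and DESeq2 also called Idh1 alone, and limma voom called in addition G6pdx in aged against young HSC, a gene named here after its values were seen. Idh1 averaged 47.0, 60.0 and 30.4 CPM, Idh2 188, 159 and 148 CPM, Glud1 101, 73.9 and 78.0 CPM and Pgd 74.4, 69.2 and 62.4 CPM in young, aged and NR-treated aged HSC.

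**Figure D4:**
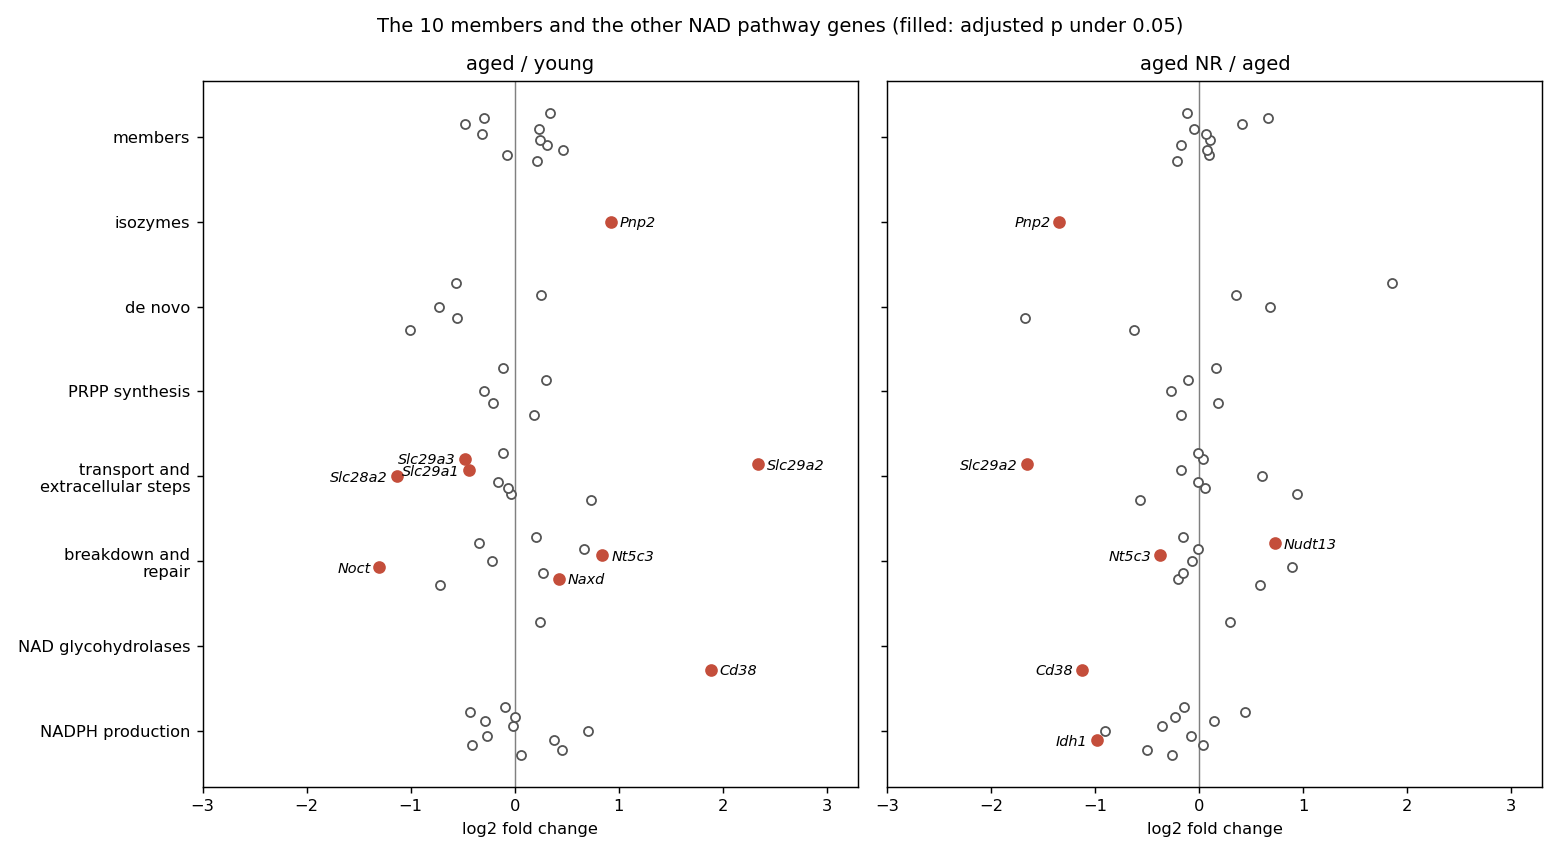
Log2 fold change (x axis) of the 10 members and of the 42 other measured pathway genes by list (rows), in aged against young and in NR-treated aged against aged HSC. Filled points with names have an adjusted p under 0.05 in the edgeR fit, and open points do not. The members hold no filled point, and Cd38, Slc29a2, Nt5c3 and Pnp2 are filled on the right in the first panel and on the left in the second, in comparisons that share the aged libraries.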

How the data were processed

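Gene expression was measured by 3′-biased RNA-seq of sorted HSC, with a 10 bp UMI in each read pair. The authors aligned reads to GRCm38 with STAR 2.4.2a, removed reads with duplicated UMIs and counted on GENCODE exons with featureCounts. Their GENCODE release was earlier than the M21 used here. They filtered out genes that did not exceed 5 reads and 2 CPM in 2 or more samples, and deposited unnormalised read counts (tools and build also per the submitters' processing notes). Whether counting used strand is not given in the sources used here.

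All 16154 genes entered 1 fit of the 15 libraries by group (edgeR 4.0.16 under R 4.3.3, TMM sizes), with quasi-likelihood F tests and p-values adjusted after Benjamini and Hochberg, called at an adjusted p under 0.05. CPM of genes use TMM sizes, while Y-linked and Xist CPM use library totals. Intervals are 95% Wald intervals of that fit. Alternatives were the likelihood ratio test (the test of the study's methods), DESeq2 1.42.0, limma 3.58.1 voom, library totals, DESeq2 size factors, at least 10 counts in every library, the 2 groups alone, counts thinned to 764119 per library, a replicate block, each library left out, and no young replicates 1 and 5.

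A limit of 3 counts corresponds to 0.225 CPM in the deepest and 3.93 CPM in the shallowest library, for counting error only. Chi-square per degree of freedom between libraries of a group was 3.00 to 16.7, so no library was a copy of another. On simulated data for aged against young, with 200 of 16154 genes changed 2-fold, the main test recovered 52%, and 6.31% of its calls were false. In the data 19.3% of genes passed, and every fitted change of a member was smaller than 2-fold. The recovery is therefore not a measure of the power for the members. Positions, exon lengths, overlaps between genes and shared windows are from GENCODE M21. The authors counted on an earlier release, in which these can differ. The members and lists were chosen with earlier results of these data known. Named genes are the members and, of each other list, the 3 with the highest mean CPM and those past the threshold in aged against young or NR-treated aged against aged HSC.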

Additional observations from a re-analysis of the deposited data

Results flagged for a closer look

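A library was set apart where its gap to the nearest of the other 4 exceeded 0.71 of the range of its group (Dixon's 95% critical value), over 99 combinations of a named gene and a group. There were 5 such cases, and chance alone gives about 1 in 20. Nadk, a member, was at 77.4 CPM in replicate 1 of the NR-treated aged animals, where the nearest of the others had 63.2 CPM. In aged replicate 2, the shallowest library, Tdo2 was at 3.89 CPM with the next at 1.18 CPM, Prps2 was at 68.8 CPM with the next at 44.9 CPM, and Noct was at 0 with the next at 2.45 CPM, which is below the 3.93 CPM that 3 counts make in that library. Idh1 was at 85.3 CPM in young replicate 3, with the next at 43.4 CPM.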

How the results depend on the processing

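No member was called in NR-treated aged against aged or against young HSC under any alternative. With at least 10 counts in every library only 7 of the 10 members were tested, without Nmrk1, Nadsyn1 and Nnt. In aged against young HSC, 1 member was called by DESeq2 (Pnp), limma voom (Pnp) and library totals (Nmrk1), and 0 to 1 over the fits that each left out 1 library. Over all genes, the calls in aged against young HSC went from 3120 to 1505 with thinned counts, to 1862 without young replicates 1 and 5, and to between 1953 (without aged replicate 3) and 3533 with 1 library left out. In NR-treated aged against aged HSC they went from 1303 to 783 with at least 10 counts in every library (8444 genes tested), to 434 with thinned counts, and to between 422 (without aged replicate 3) and 1535 with 1 library left out. In NR-treated aged against young HSC they went from 722 to 403 with thinned counts and to between 452 (without NR-treated replicate 4) and 922 with 1 library left out. The causes were not tested, apart from the smaller counts and samples that these settings use by construction.

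Changes near 0 turned sign. In NR-treated aged against aged HSC these were Nmnat3 (0.087 with library totals, 0.017 with at least 10 counts, 0.11 with thinned counts, and -0.11 to 0.044 with 1 library left out), Pnp (0.023 with library totals), Naprt and Nadk2 with thinned counts (-0.066 and -0.013), Nmnat1 (-0.038 to 0.17 with 1 library left out) and Nadsyn1 (-0.14 to 0.26). In NR-treated aged against young HSC, Nadk gave -0.00026 by DESeq2, -0.0020 with DESeq2 size factors, -0.063 thinned, -0.055 without young replicates 1 and 5 and -0.064 to 0.033 with 1 library left out, Nadk2 -0.18 thinned and -0.087 to 0.17, and Nmrk1 -0.11 to 0.00016 with 1 library left out, against -0.57 thinned. Nadk2 in aged against young HSC ran from -0.18 to 0.077 with 1 library left out.

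Library totals moved the median log2 fold change of all genes to -0.16 in aged against young and 0.16 in NR-treated aged against aged HSC, and the share of calls that were higher from 50.1% to 29.1% and from 48.1% to 78.4%.

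Deviations of the libraries from their group mean had correlations of -0.221 to 0.212 (mean 0.00141) over 15 pairs with the same replicate number. The mean over the other pairs was -0.000373. Whether libraries with the same number were handled together is not given in the sources used here. With the replicate block 0 members were called in each comparison, and 2836, 1048 and 589 genes. Depth limits Nadsyn1, Nnt and Nmrk1 most, at 6 to 8 counts in their lowest library.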
